A study of Homo sapiens with 8 samples.

Results

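The 10 genes described here move methionine through the methionine cycle, out of it into cysteine, and back from polyamine synthesis: MAT2A, MAT2B, METTL16, AHCY, AHCYL1, MTR, MTRR, CBS, CTH and MTAP. The rule that lists them names them by function and uses no measured value, though it was set with earlier results of these data known. Of the 10 genes, 10 were listed in at least 1 library, as were 12235 genes of the whole series. Ribosome profiling, which sequences the mRNA fragments that ribosomes shield from nuclease, was applied to HEK293T, a widely used human embryonic kidney cell line made immortal with SV40 large T antigen. All cells grew in the same DMEM-based medium with dialyzed serum. It was complete (sufficient) or lacked arginine (Arg-), leucine (Leu-) or methionine (Met-) overnight, and cysteine was supplied in every medium, Met- included. In 1 series of 4 libraries the cells were treated before lysis with cycloheximide (CHX), which holds elongating ribosomes in place, and in the other series of 4 libraries it was left out.

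Each medium had 1 library in each series, so there was no replicate and no difference between media was tested. Levels are RPKM, a count of footprints divided by the length of the coding sequence and by the sum of coding footprints in that library, so they are shares of a library and do not show a change in total translation. Depth ranged from 1302523 to 3139745 reads without CHX, and from 538222 (Met-) to 6434043 (Leu-) with CHX. Transcripts under 64 reads were not listed with CHX and those under 5 reads were not listed without it, and in the shallow Met- library with CHX only 3 of the 10 genes were listed (MAT2A, AHCY and AHCYL1). The series without CHX listed 10 of 10 in each medium. Intervals are 95% exact Poisson intervals for levels and exact binomial intervals for ratios of reads. They cover counting error only, and reads amplified by PCR without molecular identifiers are not independent molecules. Of 7 genes known to be expressed in HEK293T cells, 6 to 7 were listed per library without CHX and 2 to 4 with CHX, VIM in all 8, while of 7 markers of blood, liver and connective tissue cells 6 were at 0 in all 8 libraries and COL1A1 reached at most 20.2 RPKM.

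Methionine adenosyltransferase turns methionine into S-adenosylmethionine (SAM), the methyl donor for nearly all methylation of RNA, DNA, protein and lipid. Each methyl transfer leaves S-adenosylhomocysteine, which is split into adenosine and homocysteine. Homocysteine is either remethylated to methionine or condensed with serine and passed on to cysteine, and the methylthioadenosine left by polyamine synthesis is salvaged back to methionine. The MAT2A mRNA is known to carry hairpins in its 3′UTR that the RNA methyltransferase METTL16 binds and methylates, and METTL16 that lingers on them when SAM is low is known to promote splicing of the last MAT2A intron.

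Those hairpins share the letters TACAGAGAA or TACAGAAAA, and they are shown here because MAT2A was the member whose level in Met- medium lay furthest from those in the other starvations. In the 3′UTR of 1509 bases of the MAT2A transcript used here, a search of the transcribed strand found 6 places with these letters. Each is given below with 8 flanking bases on either side, on GRCh38, plus strand, all in the 3′UTR of MAT2A, with the searched letters in capitals.
chr2:85543804-85543828: gcgtaggcTACAGAGAAgccttcaa
chr2:85544591-85544615: tgatgtcaTACAGAGAAgtcacagg
chr2:85544776-85544800: ggtgtagcTACAGAGAAaccagctt
chr2:85544891-85544915: ggcgtaagTACAGAGAAgccatcac
chr2:85545006-85545030: aggtgtccTACAGAAAAaccttggg
chr2:85545114-85545138: tggtgtggTACAGAGAAgccagctt
The letters occurred at least once in 4.59% of 10963 3′UTRs, and in 4.14% of 4521 windows of the same length as that of MAT2A. MAT2A was the 1 gene among them with as many as 6, and the next highest number was 2. The letters are those that the known MAT2A hairpins share, so its high count was built into the search and is no result of these data. None of the other 9 genes had these letters in its 3′UTR. A match of letters is a description of the sequence and does not show binding.

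MAT2A (chr2:85539168-85545281, plus strand), the catalytic subunit of methionine adenosyltransferase, had its highest level in Met- medium in both series. Without CHX its level was 249 RPKM in sufficient, 85.7 in Arg-, 125 in Leu- and 1019 in Met- medium. The Met- level lay above the other 3 and the Arg- and Leu- levels lay below sufficient, with no overlap between the counting intervals of any pair of media. The ratio of reads, Met- over sufficient, was 4.10 (95% interval 3.77 to 4.45), while the Leu- ratio was 0.502 (0.431 to 0.582) and the Arg- ratio 0.344 (0.290 to 0.407). With CHX the MAT2A level was 63.3 RPKM in sufficient, 84.6 in Arg-, 83.7 in Leu- and 728 in Met- medium. Here the Arg- and Leu- levels were alike within counting error and slightly above sufficient, at ratios of 1.34 (1.13 to 1.59) and 1.32 (1.12 to 1.56). The Met- ratio with CHX was 11.5 (9.70 to 13.7). Met- medium set against Leu- medium directly, without the sufficient library, gave a MAT2A ratio of 8.16 (7.09 to 9.44) without CHX and 8.69 (7.70 to 9.81) with CHX. Set against Arg- medium, the MAT2A ratio was 11.9 (10.1 to 14.1) and 8.60 (7.57 to 9.78).

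**Figure D1:**
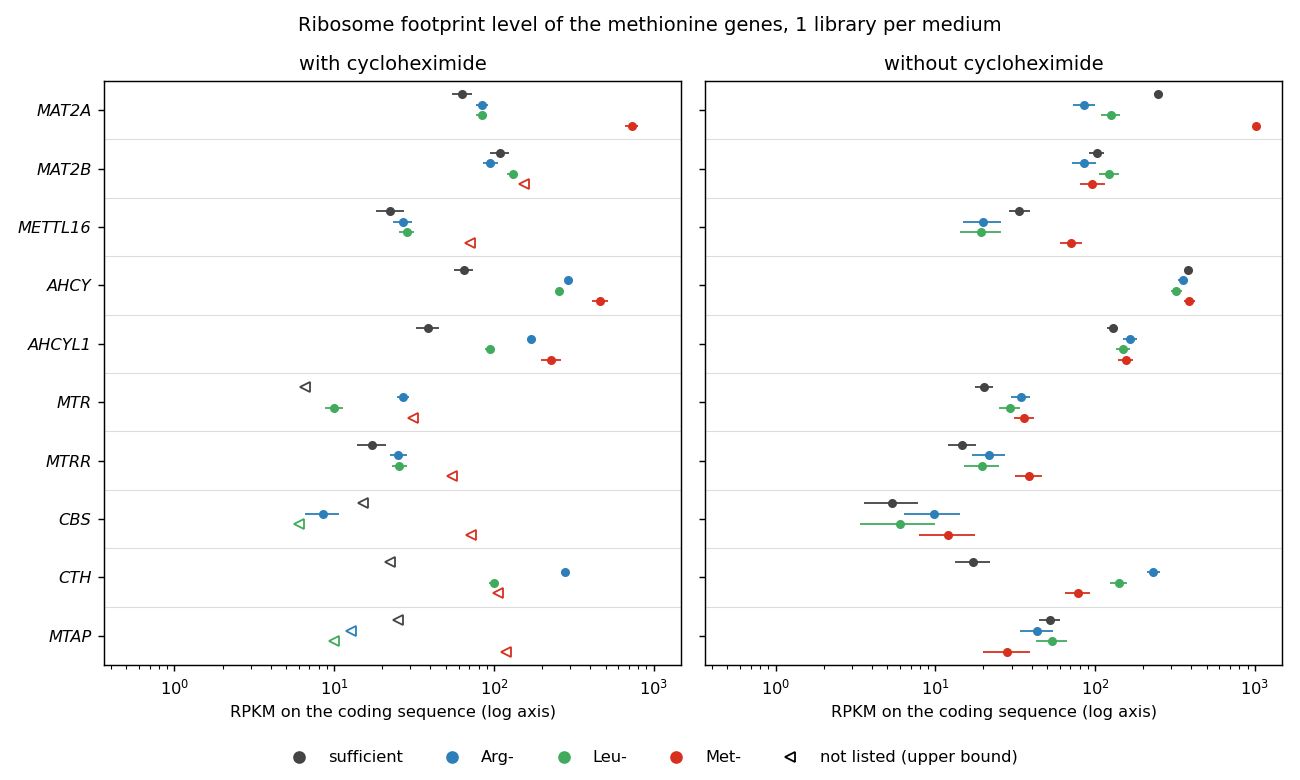
Level of each gene in each of the 8 libraries, in RPKM on a log axis, with CHX on the left and without it on the right. Points are single libraries coloured by medium, bars are 95% exact Poisson intervals, and open triangles mark the RPKM that the listing minimum is worth for a gene that was not listed. MAT2A in Met- medium stands at 728 and 1019 RPKM, above the other media of its series.

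For comparisons across genes, a log2 ratio of (RPKM + 1) in starved over sufficient medium was taken for genes with a mean of at least 10 RPKM in the pair, and 2-fold (1 on the log2 scale) counted as higher or lower. On that scale the MAT2A ratio in Met- medium was 2.03 without CHX and ranked 156 of 7897 genes from the highest, and it was 3.50 with CHX, ranked 150 of 4805. Its distance from the mean of the Leu- and Arg- log2 ratios was 3.29 without CHX, which ranked 3 of 7203 genes. The genes above it, FKBP1B (4.12) and DHRS2 (3.58), were identified after the ranking was seen, and FKBP1B owes its place to not being listed in Leu- and Arg- medium. With CHX the same distance for MAT2A was 3.10 and ranked 58 of 4696. The ranks with CHX include genes without a measured ratio. Of the 4805 genes, 2788 were not listed in Met- and 127 not in sufficient medium. The 1890 listed in both had a median log2 ratio of 0.89. The 3 comparisons of a series share 1 sufficient library, so an unusual level there would move all 3 ratios of a gene together, and the direct Met- to Leu- and Met- to Arg- ratios above do not use it.

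MAT2B (chr5:163503114-163519558, plus strand), the regulatory subunit that pairs with MAT2A, did not follow it. Its level without CHX was 102 RPKM in sufficient, 85.3 in Arg-, 123 in Leu- and 96.3 in Met- medium. The Met- to sufficient ratio of MAT2B was 0.943 with an interval of 0.761 to 1.16, so a change of 2-fold lay outside the counting error and no change lay inside it. With CHX the level of MAT2B was 109 RPKM in sufficient, 95.0 in Arg- and 131 in Leu- medium. It was not listed in Met- medium, where the listing minimum was worth 153 RPKM, above all 3 of those levels, so that series does not measure MAT2B in methionine lack.

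METTL16 (chr17:2405562-2511891, minus strand), the methyltransferase of the MAT2A hairpins shown above, was highest in Met- medium without CHX. Its level was 33.6 RPKM in sufficient, 19.8 in Arg-, 19.4 in Leu- and 70.9 in Met- medium. As for MAT2A, Met- lay above sufficient and both other starvations lay below it, and the intervals of the Arg- and Leu- levels overlapped each other but not those of the other media. The Met- ratio of reads was 2.11 (1.69 to 2.63), the Leu- ratio 0.577 (0.412 to 0.796) and the Arg- ratio 0.591 (0.428 to 0.806). The log2 distance of Met- from the mean of the other starvations was 1.80 for METTL16, ranked 66 of 7203. With CHX the METTL16 level was 22.5 RPKM in sufficient, 26.9 in Arg- and 28.4 in Leu- medium, and it was not listed in Met- medium, where the listing minimum was worth 70.5 RPKM. Without CHX the median log2 ratio of all genes in Met- medium was 0.31. Once that was subtracted the METTL16 ratio fell from 1.06 to 0.74, below 2-fold, while MAT2A kept 1.71.

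**Figure D2:**
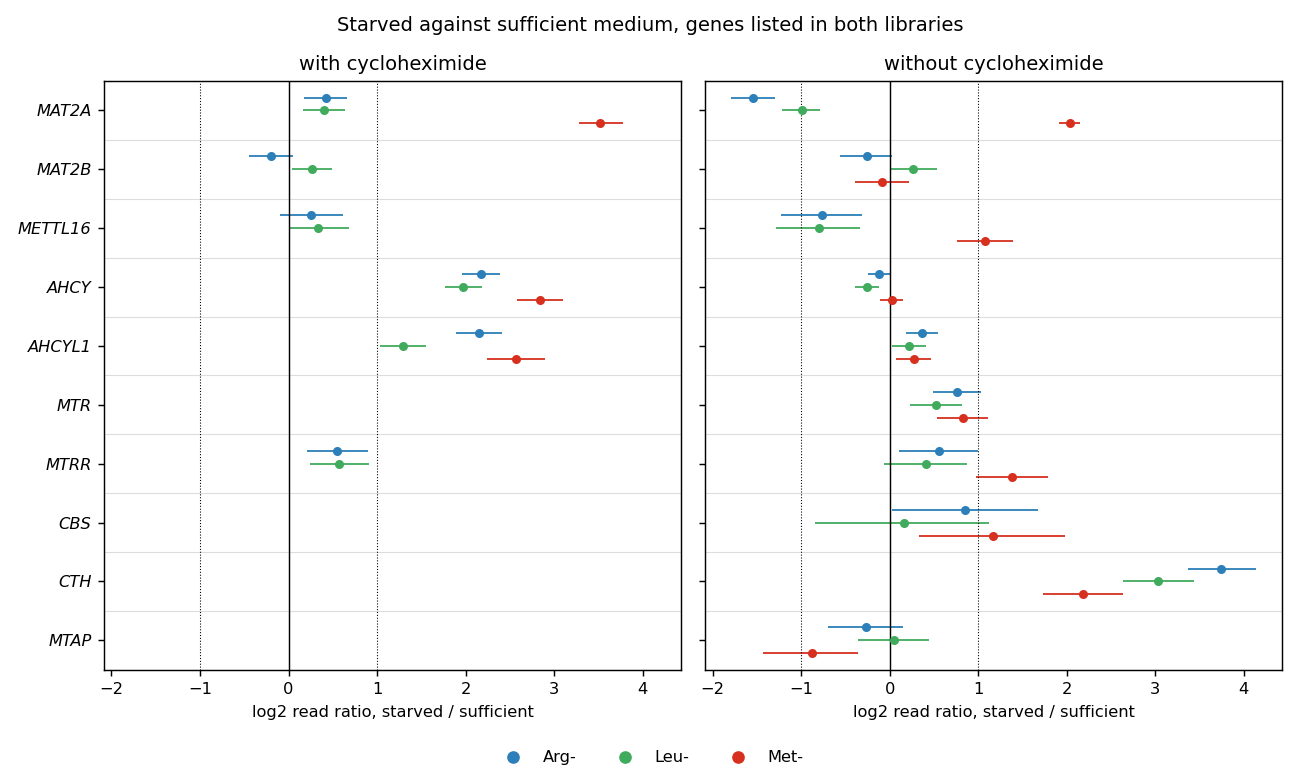
Log2 ratio of reads in starved over sufficient medium for genes listed in both libraries, with CHX on the left and without it on the right, with 95% exact intervals of counting error and dotted lines at 2-fold. Without CHX, MAT2A and METTL16 are above 0 in Met- and below 0 in Leu- and Arg- medium, and CTH is furthest to the right in Arg- medium.

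AHCY (chr20:34280268-34311802, minus strand), the hydrolase that splits S-adenosylhomocysteine, was the most even of the 10 genes without CHX, while with CHX it was higher in every starvation. Without CHX its level was 383 RPKM in sufficient, 353 in Arg-, 321 in Leu- and 389 in Met- medium. The Met- ratio of reads was 1.02 (0.927 to 1.11) and the lowest ratio, in Leu- medium, was 0.839 (0.764 to 0.921). With CHX the level of AHCY was 64.8 RPKM in sufficient, 292 in Arg-, 254 in Leu- and 463 in Met- medium. These were ratios of 4.51 (3.89 to 5.24), 3.92 (3.39 to 4.56) and 7.15 (5.96 to 8.59), so the sufficient library stood apart from the 3 starved ones. Between starved libraries with CHX, the Met- to Leu- ratio of AHCY was 1.82 (1.61 to 2.06).

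AHCYL1 (chr1:109984765-110023742, plus strand), a relative of AHCY that is best known for binding the inositol trisphosphate receptor, behaved likewise. Its level without CHX was 129 RPKM in sufficient, 165 in Arg-, 150 in Leu- and 155 in Met- medium, and no starvation exceeded a ratio of 1.29 (1.13 to 1.46). With CHX the AHCYL1 level was 38.5 RPKM in sufficient, 171 in Arg-, 94.2 in Leu- and 228 in Met- medium. The ratios to sufficient were 4.43 (3.72 to 5.30) in Arg-, 2.44 (2.05 to 2.94) in Leu- and 5.92 (4.72 to 7.43) in Met- medium. The files of the series list different transcripts for AHCY, AHCYL1, MAT2B and CTH, so levels of these genes are not compared between the series.

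The remethylation enzymes had low levels that were higher in Met- than in sufficient medium without CHX, MTRR by more than MTR. MTR (chr1:236795260-236921278, plus strand) is methionine synthase, which passes a methyl group from folate through its cobalamin cofactor to homocysteine. MTR stood without CHX at 20.3 RPKM in sufficient, 34.3 in Arg-, 29.2 in Leu- and 36.0 in Met- medium. The intervals of the 3 starved levels overlapped one another and lay above that of sufficient medium, and the Met- ratio was 1.77 (1.45 to 2.16). With CHX, MTR was listed in Arg- (27.1 RPKM) and Leu- medium (9.95 RPKM) only, and its Arg- level was at least 4.11-fold higher than its unlisted level in sufficient medium, taken at the listing minimum.

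MTRR (chr5:7851186-7906025, plus strand) is the reductase that reactivates the cobalamin of MTR. MTRR stood without CHX at 14.8 RPKM in sufficient, 21.7 in Arg-, 19.6 in Leu- and 38.4 in Met- medium. The Met- interval (31.5 to 46.3 RPKM) lay above those of the other 3 media, and the ratio to sufficient was 2.60 (1.97 to 3.44). Set against Leu- medium directly, the Met- ratio of MTRR was 1.96 (1.42 to 2.71), so its excess over the other starvations was smaller than that of MAT2A. With CHX the MTRR level was 17.2 RPKM in sufficient, 25.2 in Arg- and 25.6 in Leu- medium, and it was not listed in Met- medium, where the listing minimum was worth 54.7 RPKM.

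CTH (chr1:70411218-70439851, plus strand), cystathionine gamma-lyase, which releases cysteine at the end of transsulfuration and is a known target of the stress transcription factor ATF4 was higher in all 3 starvations without CHX, and least so in Met- medium. Without CHX its level was 17.3 RPKM in sufficient, 231 in Arg-, 141 in Leu- and 78.2 in Met- medium. The 4 levels were separated from one another by more than counting error, in the order Arg-, Leu-, Met-, sufficient. The ratios of reads were 13.4 (10.3 to 17.6) in Arg-, 8.17 (6.21 to 10.9) in Leu- and 4.53 (3.33 to 6.20) in Met- medium. Met- medium thus held 0.554 (0.444 to 0.690) of the Leu- level and 0.338 (0.275 to 0.413) of the Arg- level of CTH. With CHX it was listed at 278 RPKM in Arg- and 99.9 RPKM in Leu- medium, at least 12.4-fold and at least 4.47-fold higher than its unlisted level in sufficient medium, taken at the listing minimum. It was not listed in Met- medium with CHX, where its level was at least 2.62-fold lower than in Arg- medium and could not be set against that in Leu- medium.

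ASNS, asparagine synthetase, another known ATF4 target, was set beside CTH. Its level without CHX was 68.0 RPKM in sufficient, 689 in Arg-, 607 in Leu- and 392 in Met- medium, which is the order of CTH. The ASNS ratios were 10.1 (9.05 to 11.4), 8.92 (7.95 to 10.0) and 5.77 (5.09 to 6.54). TRIB3, a pseudokinase induced by ATF4, had ratios of 17.4 in Arg-, 13.4 in Leu- and 2.91 in Met- medium without CHX, and PSAT1, of serine synthesis, had 2.50, 3.63 and 2.32. CHAC1 was listed in none of the 8 libraries. Of the 12 reference genes of that response, 8 of 10 that passed the filter were at least 2-fold higher in Met- medium without CHX, where 20.2% of all genes were, against 9 of 10 in each of Leu- and Arg- medium, where 6.89% and 8.33% of all genes were. Those at least 2-fold higher in Met- medium in both series were ATF4 itself, ASNS, PSAT1, SHMT2 of mitochondrial serine use, and DDIT4 and SESN2, which restrain mTORC1. Their Met- ratios without CHX ran from 2.32 for PSAT1 to 6.12 for DDIT4. The order of CTH was not common to them. SESN2 had it, at 237, 236 and 187 RPKM in Arg-, Leu- and Met- medium without CHX. ATF4, at 700, 1098 and 662, SHMT2, at 475, 431 and 471, and DDIT4, at 798, 699 and 1124, did not, nor did PSAT1. With CHX, where 46.7% of the genes listed in both libraries were at least 2-fold higher and their median log2 ratio was 0.89, ATF4 and PSAT1 fell below 2-fold once that median was subtracted, to 0.82 and 0.75 on the log2 scale, and PSAT1 also fell below it without CHX (0.89).

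CBS (chr21:43053191-43076943, minus strand), cystathionine beta-synthase, which starts transsulfuration, was the lowest gene of the group. Its level without CHX was 5.39 RPKM in sufficient, 9.75 in Arg-, 6.05 in Leu- and 12.1 in Met- medium, on 15 to 28 reads. The Met- ratio was 2.24 with a wide interval of 1.26 to 3.96, and CBS did not reach the minimum level of the comparisons. With CHX it was listed in Arg- medium only, at 8.45 RPKM. These levels are uncertain, because 14 of its 15 coding exons, or 1583 of 1653 coding bases, have an exact copy elsewhere on chromosome 21 of GRCh38 (chr21:6445561-6463871, the copy known as CBSL), and the authors kept uniquely mapped reads.

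MTAP (chr9:21802636-21937651, plus strand), the phosphorylase that begins the salvage of methylthioadenosine, was the 1 member of the 10 with its lowest level in Met- medium without CHX. Without CHX its level was 52.0 RPKM in sufficient, 43.2 in Arg-, 53.8 in Leu- and 28.3 in Met- medium. The Met- interval (19.9 to 39.0 RPKM) overlapped that of Arg- medium and lay below those of sufficient and Leu- medium. The ratio to sufficient was 0.544 (0.370 to 0.781), short of 2-fold. On the log2 scale the MTAP ratio was −0.86, and −1.17 once the median of all genes was subtracted. It was listed in no library with CHX.

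Without CHX, 9 of the 10 genes passed the filter in Met- medium, and 4 of these, MAT2A, METTL16, MTRR and CTH, were at least 2-fold higher, while 20.2% of all 7897 genes that passed were. None was 2-fold lower, against 5.47% of all genes. In Leu- medium 1 of 9 was higher, CTH, against 6.89% of all genes, and none was lower, against 2.12%. In Arg- medium CTH was again the 1 of 9 that was higher, against 8.33%, and MAT2A the 1 that was lower, against 6.05%. The median log2 ratio of the 9 genes was 0.80 in Met-, 0.22 in Leu- and −0.12 in Arg- medium, beside 0.31, 0.14 and −0.02 over all genes.

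With CHX, 5 of the 10 passed in Met- medium. MAT2A, AHCY and AHCYL1 were higher, against 21.0% of all 4805 genes. MAT2B and METTL16 counted as lower, against 61.9%, but solely because they were not listed, as 2788 genes that passed were not. Among the 1890 genes listed in both of these libraries the median log2 ratio was 0.89, and 46.7% were at least 2-fold higher. In Leu- medium with CHX 3 of 7 were higher (AHCY, AHCYL1 and CTH), against 26.3%, and none was lower, against 6.32%. In Arg- medium 4 of 8 were higher (AHCY, AHCYL1, CTH and MTR), against 29.7%, and none was lower, against 18.4%. CTH and MTR were not listed in the sufficient library with CHX and passed the filter only through the starved library in which they were high. Of the 6 members listed in both libraries, 2 were higher in Leu- medium, where 12.1% of such genes were, and 2 in Arg- medium, where 16.6% were, AHCY and AHCYL1 in each.

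A gene was counted as responding to methionine lack alone when its log2 ratio passed 2-fold in Met- medium and stayed inside 2-fold in both Leu- and Arg- medium. Without CHX, METTL16 and MTRR met this rule as higher, 2 of 9, against 11.3% of all 7203 genes, and no member met it as lower, against 3.83%. MAT2A did not meet it in that series because its Arg- ratio (−1.53 on the log2 scale) passed 2-fold in the opposite direction. With CHX, MAT2A met it as higher, 1 of 5, against 9.18%, and the 2 unlisted genes, MAT2B and METTL16, counted as lower, against 38.9%, without a measured level.

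**Figure D3:**
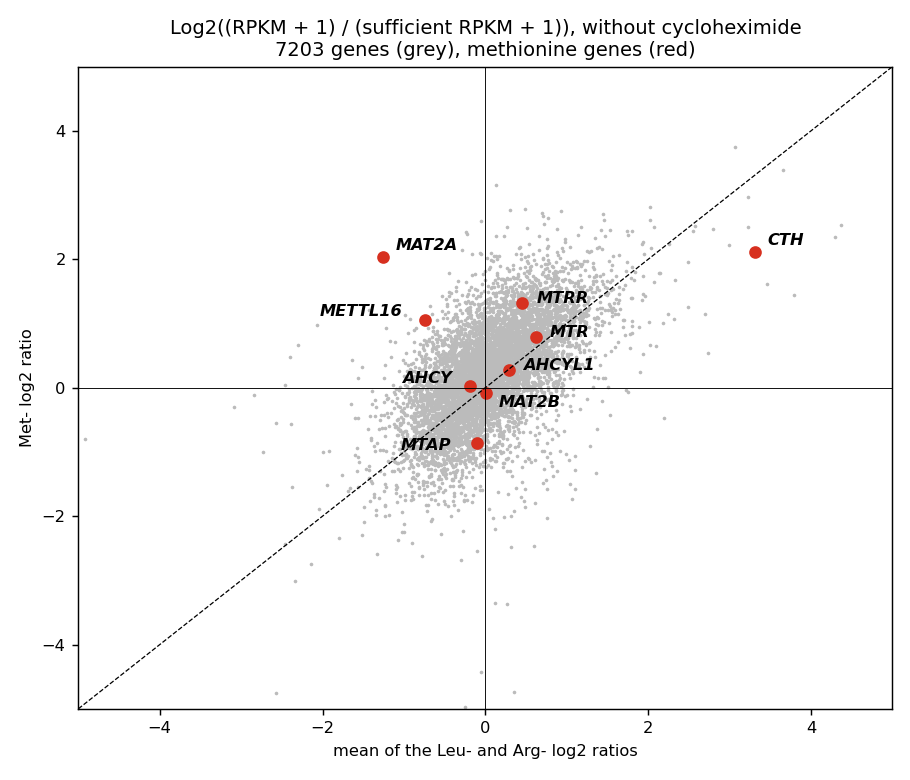
Met- log2 ratio against the mean of the Leu- and Arg- log2 ratios for 7203 genes without CHX, with the 9 genes that passed the filter in red and a dashed line of equality. All axes share the same sufficient library, and 8 genes lie outside the axes. MAT2A (2.03 in Met- medium) and METTL16 (1.06) lie at the upper left, and CTH (2.12) lies below the line at the right.

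The genes whose 6 log2 ratios were nearest to those of MAT2A, by Euclidean distance over the 6 comparisons among 4396 genes with a value in each, were DHCR7 (distance 1.53), MRM3 (1.67) and METTL13 (1.90). DHCR7, the last enzyme of cholesterol synthesis, had Met- log2 ratios of 3.03 with CHX and 0.90 without it, so even the nearest gene fell well short of MAT2A without CHX. Those nearest to AHCY were GOT2 (0.60), PGK1 (0.91) and RUVBL2 (0.96). CTH did not pass the filter in all 6 comparisons and was not matched.

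The start codons of these mRNAs are shown because the study asked how methionine lack affects the choice of start sites. Each line gives the 6 bases before the start codon, the ATG in capitals and the 3 bases after it, with the position of the ATG on GRCh38, for the genes that were at least 2-fold higher in Met- medium without CHX and for 3 that were not.
MAT2A, chr2:85539288-85539290, plus strand: accaacATGaac
METTL16, chr17:2502329-2502331, minus strand: tcagagATGgct
MTRR, chr5:7869134-7869136, plus strand: ccgagcATGggc
CTH, chr1:70411416-70411418, plus strand: ttcagcATGcag
AHCY, chr20:34303268-34303270, minus strand: gccagcATGtct
MAT2B, chr5:163505687-163505689, plus strand: gcgggcATGgtg
MTAP, chr9:21802749-21802751, plus strand: gcagacATGgcc
All 10 genes had a purine (A or G) 3 bases before the ATG, as did 84.8% of 11038 transcripts, and 4 of 10, MAT2B, METTL16, MTRR and MTAP, had a G right after it, as did 53.0%. Of the genes higher in Met- medium, METTL16 and MTRR had that G and MAT2A and CTH did not. Methionine made up 0.828% of the codons of MTRR, 1.52% of MAT2A, 1.96% of METTL16 and 2.47% of CTH, and 3.70% of AHCY, against a median of 2.13% over transcripts. The genes that were higher thus lay on both sides of that median.

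Beyond the 10 genes, 58 others of methionine supply, SAM use, polyamine and glutathione synthesis and RNA methylation were examined. Without CHX, 46 of them passed the filter in Met- medium, of which 19 were at least 2-fold higher, against 20.2% of all genes, and 2 were lower, SMS and MSRB2, against 5.47%. Once the median of all genes was subtracted 13 were higher and 5 lower, beside 849 higher and 850 lower of all 7897 genes. In Leu- medium 4 of 42 were higher, against 6.89% of all genes, and 2 lower, against 2.12%, and in Arg- medium 5 of 43 were higher, against 8.33%, and 1 lower, against 6.05%, counts near the background. The median log2 ratio of the list in Met- medium without CHX was 0.67, beside 0.31 over all genes. With CHX 31 of the list passed in Met- medium. Of these 8 were higher, against 21.0% of all genes, and 19 lower, against 61.9%, counts near the background. All but 2 of the 19 were lower by not being listed. The median of the list there was −4.86, beside −4.84 over all genes.

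The genes of N6-methyladenosine (m6A), the most common internal methyl mark of mRNA, formed the group with the most higher genes in Met- medium without CHX. In Met- medium without CHX 10 of 13 were at least 2-fold higher, against 20.2% of all genes, and none was lower, against 5.47%, with a median log2 ratio of 1.20. Once the median of all genes listed in both libraries was subtracted 6 of 13 were higher, beside 848 of all 7897 genes. In Leu- medium 0 of 11 that passed were higher (median 0.44), against 6.89% of all genes, and in Arg- medium 1 of 11, CBLL1 (median 0.09), against 8.33%. RBM15, which guides the m6A writer complex to its targets, went from 22.0 RPKM in sufficient to 158 in Met- medium, a ratio of 7.16 (6.10 to 8.44), and stood at 33.2 in Leu- and 29.4 in Arg- medium. WTAP, the adaptor of the writer, went from 114 to 478 RPKM, a ratio of 4.19 (3.71 to 4.73), and stood at 134 in Leu- and 117 in Arg- medium. METTL3, the catalytic subunit of the writer, stood at 33.4 RPKM in sufficient and 33.5 in Met- medium, with an interval of the ratio from 0.756 to 1.31. With CHX, RBM15 had a ratio of 16.7 (13.5 to 20.7) and WTAP one of 2.10 (1.67 to 2.64) in Met- medium. With the median of genes listed in both libraries subtracted, RBM15 kept 3.09 on the log2 scale and WTAP fell to 0.17, below 2-fold. The other m6A genes were not listed there, apart from ALKBH5, a demethylase, at a ratio of 1.17 (0.942 to 1.44). Of 6 m6A genes that passed with CHX, 2 were higher, against 21.0% of all genes, and 3 lower, against 61.9%. Those 3, CBLL1, YTHDF1 and YTHDF2, counted as lower by not being listed. They stood at 21.5, 58.0 and 28.1 RPKM in sufficient medium with CHX. Rises as large as theirs without CHX, from 12.7 to 70.2, 37.9 to 79.1 and 75.4 to 476 RPKM, would have been listed.

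Of the transport and charging genes, SLC3A2 and SLC7A5, the subunits of the transporter that brings methionine and leucine into the cell, and MARS1, methionyl-tRNA synthetase, were at least 2-fold higher in Met- medium in both series. SLC7A5 had a Met- ratio of 2.67 (2.42 to 2.93) without CHX and 3.10 (2.79 to 3.45) with CHX. With CHX its log2 ratio fell from 1.63 to 0.74, below 2-fold, once the median of genes listed in both libraries was subtracted, while SLC3A2 kept 3.73 and MARS1 2.27. SLC3A2 had ratios of 4.54 (4.08 to 5.05) and 25.2 (21.4 to 29.9). Without CHX its Leu- ratio of 3.86 and Arg- ratio of 4.44 were close to that in Met- medium, and MARS1 had 2.59 in Met-, 3.03 in Leu- and 3.29 in Arg- medium. AMD1, the decarboxylase that commits SAM to polyamine synthesis, was picked out after its values were seen. AMD1 stood without CHX at 110 RPKM in sufficient, 93.3 in Arg-, 68.5 in Leu- and 380 in Met- medium. That was a Met- ratio of 3.46 (3.01 to 3.98). With CHX its level was 78.0 RPKM in sufficient medium, and it was not listed in Met- medium. For its coding length of 1002 bases the listing minimum there was worth 119 RPKM, so a rise of 3.46-fold would have been listed. SMS, spermine synthase, which uses the product of AMD1, had a Met- ratio of 0.337 (0.262 to 0.429) without CHX. MSRB2, a mitochondrial methionine sulfoxide reductase, had 0.459 (0.251 to 0.790). Both counted as lower with CHX by not being listed.

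**Figure D4:**
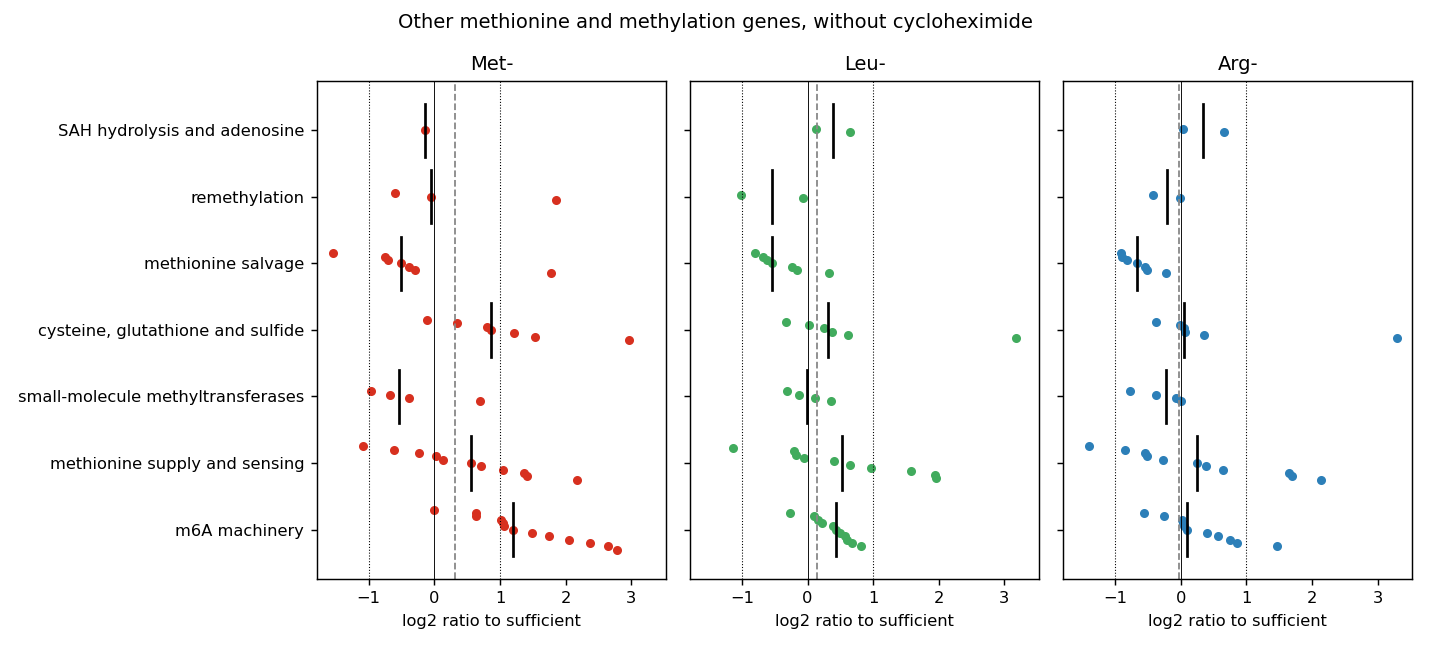
Log2 ratio of (RPKM + 1) in starved over sufficient medium without CHX for the further methionine and methylation genes that passed the filter, by role. Points are genes, black bars are the medians of a role, the dashed line is the median of all genes and dotted lines mark 2-fold. The m6A genes have a median of 1.20 in Met-, 0.44 in Leu- and 0.09 in Arg- medium.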

How the data were processed

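The authors removed adaptors, selected footprints by length, clipped poor bases (Trimmomatic), mapped reads with Bowtie to human transcripts on GRCh38, allowing no mismatch, and used those with a unique position. The submitters' processing notes name cutadapt and Bowtie, and the annotation release is not given in the sources used here. The authors deposited RPKM per Ensembl transcript. The series without CHX differed in its deposited files, whose names tell of duplicate removal, in its listing minimum and in the transcript listed for some genes.

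Transcripts were matched to GENCODE release 44, 96.7% to 97.1% of each library, and the highest transcript per gene was used. Reads were recovered from the whole steps of RPKM times coding length, on which 97.2% to 97.4% of values lay within 0.01 of a read. They served for counting intervals at 95%. Ratios used a pseudocount of 1 RPKM and a minimum mean of 10 RPKM over the pair, unlisted genes counting as 0, and 2-fold marked a call. Folds on that scale understate the change of low genes. Groups were taken from the labels of the records, and with 1 library per group no test across genes was run. The members and lists were chosen with earlier results of these data known. All 10 members were named, and of the other lists the genes 2-fold the same way in Met- medium in both series, plus ASNS, TRIB3, CHAC1 and PSAT1. METTL3, ALKBH5, AMD1, CBLL1, YTHDF1, YTHDF2 and the genes ranked above MAT2A were named after their values were seen. Alternatives were another pseudocount, another filter, summed or fixed transcripts, centred ratios, genes listed in both libraries, ratios of reads and a fold of 1.5. Scripts were tested on simulated data. The tools were Python 3.11.15 with scipy 1.17.1, pandas 2.3.3, numpy 2.4.6 and, for plots, matplotlib 3.10.9.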

Additional observations from a re-analysis of the deposited data

Results flagged for a closer look

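MAT2A, METTL16 and AHCY moved in opposite directions in the series with CHX and without it under the same starvation, each by more than counting error. In Leu- medium the log2 ratio of MAT2A was 0.40 with CHX and −0.99 without it, a difference of 1.39. In Arg- medium it was 0.41 and −1.53, a difference of 1.94. For METTL16 in Leu- medium the log2 ratios were 0.32 and −0.76, a difference of 1.09, and for AHCY in Leu- medium they were 1.96 and −0.25, a difference of 2.21. The AHCY ratios were taken within each series and rest on different transcripts, so they do not compare the same coding sequence. With 1 library in each group these differences were not tested.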

How the results depend on the processing

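Of 392 recomputed log2 ratios of the members, 359 stayed within their counting error, or within a small fixed width where a ratio had no interval. Many of these could not move. The filters only keep or drop a gene, and summed or fixed transcripts change nothing for a gene with 1 listed transcript. The number 359 is therefore no measure of stability. The sign changed in 8, all under centring: 1 of a ratio past 2-fold, METTL16 below, and 7 of 4 ratios short of 2-fold, AHCY and AHCYL1 in Met- and MTAP in Leu- medium without CHX and MAT2B in Arg- medium with CHX, which were at most 0.27 from 0 before and 0.29 after. MAT2A stayed at least 2-fold higher in Met- medium under all 9 alternatives in each series. Its log2 ratio ran from 1.71 to 2.03 without CHX and from 2.61 to 8.34 with CHX. Only the pseudocount, the centrings and the ratio of reads could change it, since MAT2A had 1 listed transcript. In Met- medium with CHX the median of the genes that passed was −4.84, since unlisted genes counted as 0. Centring on it turned the METTL16 log2 ratio from −4.55 to 0.28, left 1 member lower and 1 lower in methionine lack alone, and gave 14 higher and 12 lower genes of the wider list, where 8 and 19 stood before. Centring on the median of genes listed in both libraries, an alternative chosen after the data were seen, gave 4 higher. Of all genes, 1009 were higher before, 2017 after the first centring and 520 after the second, and 2973, 1539 and 3222 were lower. Lower in methionine lack alone were 1826 of all genes before and 949 after the first centring.

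With a minimum of 50 RPKM, Met- medium with CHX had 1 lower member, 1 lower in methionine lack alone and 5 lower genes of the wider list. Of all genes, 1141 were lower there at that minimum, where 2973 had been, and 666 were lower in methionine lack alone, where 1826 had been. Without CHX, Met- medium had 2 higher members, 0 higher in methionine lack alone, and 12 higher and 1 lower of the wider list. All genes then numbered 382 higher and 296 lower, from 1596 and 432, and 112 higher in methionine lack alone, from 813. Keeping only genes listed in both libraries left 0 lower members, 0 lower in methionine lack alone and 2 lower wider genes in Met- medium with CHX, and 2 higher members in Arg- medium with CHX. Using the transcript highest in sufficient medium also gave 2 there. Of all genes listed in both libraries, 9.79% were lower in that Met- comparison and 16.6% higher in that Arg- comparison. Without CHX, either centring gave 3 higher members in place of 4 and 1 lower member in Met- medium (MTAP), 1 lower in Leu- medium (MAT2A), 1 higher and 1 lower in methionine lack alone, and 13 higher and 5 lower genes of the wider list, where 19 and 2 stood before. Of all genes in Met- medium without CHX, centring on the median of those that passed left 849 higher and 850 lower. A fold of 1.5 without CHX gave 1 lower member in Met-, 2 lower in Leu-, and 2 higher and 2 lower in Arg- medium, of 9 in each. All genes were not counted at that fold, so these counts have no background.

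Without CHX the higher genes in Met- medium ranged from 382 of all genes at 50 RPKM to 2485 with no filter, 1596 as reported. With CHX they ranged from 520 to 2017 between the 2 centrings, 1009 as reported, and the lower genes fell from 2973 to 185 when only genes listed in both libraries were kept. No paired analysis was possible because each group has 1 library, and for the same reason no library could be left out of a group. A fit over all 8 libraries with the series as a block was not run, since the series differ in treatment and in how their tables were made. Depth limits Met- medium with CHX most, where 538222 reads and a minimum of 64 leave 7 of the 10 members without a value.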
